A study of Mus musculus with 24 samples.

Results

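The genes described here are the 10 that carry fatty acids into the adipocyte and build triglyceride from them: *Lpl*, *Gpihbp1*, *Cd36*, *Slc27a1*, *Fabp4*, *Gpam*, *Agpat2*, *Lpin1*, *Dgat1* and *Dgat2*. They were chosen by name from the known pathway, at a time when earlier results of these data had been seen. All 10 were found among the 16730 genes in the count table and passed the filter on low counts that left 15020 genes. RNA of whole epididymal white adipose tissue (eWAT; gWAT in the sample labels) from 24 male mice of the strain labelled LFKO was measured by QuantSeq, which reads the 3′ ends of transcripts. There were 6 mice in each of 4 groups: *Lama4* fl/fl mice on regular chow, adipocyte-specific *Lama4* knockout (AKO) mice on chow, fl/fl mice on a high-fat diet (HFD, 45% fat) and AKO mice on HFD, each after 20 weeks of diet. The fl/fl controls were littermates that carry the floxed alleles without Cre, and all 4 groups therefore share the floxed *Lama4* gene, in which exon 3 is flanked by loxP sites. In AKO mice Cre was driven by the adiponectin promoter, so that deletion is limited to cells that use this promoter while the tissue sequenced held every cell type of the fat pad.

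White adipocytes take most of their stored fat from lipoproteins in the blood. Lipoprotein lipase, made by adipocytes and moved to the capillary wall by the endothelial protein GPIHBP1, releases fatty acids that enter the cell with the help of CD36 and of fatty acid transport proteins such as SLC27A1, and FABP4 binds them in the cytosol. The fatty acids are then joined to glycerol-3-phosphate in turn by a glycerol-3-phosphate acyltransferase (GPAM, in mitochondria) and an acylglycerophosphate acyltransferase (AGPAT2), the phosphate is removed by a lipin, and DGAT1 or DGAT2 adds the last acyl chain to make triglyceride.

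Promoter sequences are shown for a pair of acyltransferase genes that fell on HFD in AKO mice and for *Cd36*, which differed little between the groups, so that the results below can be set beside the sequence. They are the 250 bases before a transcript start in the RefSeq table of GRCm38.p6, written 5′ to 3′ on the strand of the gene, and capitals mark matches to the motifs searched for. RefSeq entries of this kind were matched for 5 of the 10 genes (*Agpat2*, *Cd36*, *Slc27a1*, *Lpin1* and *Gpam*; 8 entries).
Gpam, chr19:55127239-55127488, minus strand: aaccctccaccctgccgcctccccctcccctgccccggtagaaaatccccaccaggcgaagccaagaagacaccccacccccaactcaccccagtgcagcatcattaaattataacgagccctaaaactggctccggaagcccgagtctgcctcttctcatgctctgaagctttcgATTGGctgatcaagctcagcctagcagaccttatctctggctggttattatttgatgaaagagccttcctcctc
Agpat2, chr2:26604418-26604667, minus strand: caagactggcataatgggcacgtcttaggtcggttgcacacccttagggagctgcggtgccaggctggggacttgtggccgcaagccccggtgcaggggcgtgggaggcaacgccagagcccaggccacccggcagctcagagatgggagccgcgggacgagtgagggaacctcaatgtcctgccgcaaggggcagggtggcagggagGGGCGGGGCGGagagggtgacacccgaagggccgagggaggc
Cd36, chr5:17835897-17836146, minus strand: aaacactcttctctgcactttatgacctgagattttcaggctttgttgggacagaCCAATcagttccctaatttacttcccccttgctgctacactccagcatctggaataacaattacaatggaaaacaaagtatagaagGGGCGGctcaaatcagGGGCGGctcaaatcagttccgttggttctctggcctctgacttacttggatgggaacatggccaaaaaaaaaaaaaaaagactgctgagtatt

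Each window was searched on both strands for 7 motifs. The core promoter motifs were the CCAAT box, the GC box (GGGCGG) and the TATA box (TATAAA). The others were the E-box (CACGTG), a C/EBP motif (TTGCNNAA), a motif of SREBP (TCACNCCAC) and the PPARG element, in which the half-site AGGTCA is repeated after 1 base. The *Agpat2* window held the GC box at 42 and 37 bases before the start, and these matches share 1 base. The *Cd36* window held CCAAT at 195 bases and the GC box at 109 and 93 bases before the start. The printed *Gpam* window held CCAAT on the opposite strand at 74 bases before the start. Another *Gpam* entry that is not printed (chr19:55099478-55099727) held the GC box on the opposite strand at 16 bases before its start and no CCAAT. Of 32851 RefSeq windows of the same length, 33.9% held CCAAT and 32.7% the GC box. The PPARG motif was in 0.0335% of windows, the C/EBP motif in 9.56% and the SREBP motif in 1.05%, and none of the 3 printed windows held one of these. The first 2 windows lie directly upstream of the annotated genes *Gpam* (chr19:55067268-55127238) and *Agpat2* (chr2:26593057-26604417), whereas that of *Cd36* lies inside the annotated span of the gene (chr5:17781690-17888801), upstream of 1 of its transcripts.

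Libraries held 5579590 to 18764516 counts, and the smallest was chow-fed AKO mouse 5. The HFD-fed AKO libraries held 9156492 to 11640690 counts, with a lower median than the other groups, and the part of depth in the results was not tested. Reads at the 3′ end lie outside the floxed exon, so the *Lama4* count does not test whether the exon was excised. The median *Lama4* level was 91.6 CPM (counts scaled to the library size with TMM factors) in fl/fl mice on chow and 113 CPM in AKO-labelled libraries of that diet, against 78.6 and 44.2 on HFD, and neither genotype difference passed an exact two-sided permutation test (p = 0.524 on chow and 0.152 on HFD, n = 6 per group). The groups were heterogeneous. The first principal component of all genes held 45.8% of the variance, and on it HFD-fed fl/fl mice 3, 4 and 6 had scores of -9.88, -76.1 and -60.4, below every HFD-fed AKO mouse (0.850 to 61.5), while HFD-fed fl/fl mice 1, 2 and 5 had scores of 48.2 to 73.5. An earlier analysis of these files inferred that the study left out 5 mice after principal component analysis (chow-fed fl/fl mouse 3, chow-fed AKO mouse 5 and HFD-fed fl/fl mice 3, 4 and 6). Values without them are given for the 10 genes where they differ, and as counts for the lists of other pathway genes, but those mice were picked by their expression and such values are no independent support.

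On HFD, AKO mice had lower levels of 4 of the 5 triglyceride synthesis genes than on chow. *Dgat1*, *Dgat2*, *Gpam* and *Agpat2* fell by a factor of 1.93 to 2.39, and *Fabp4* and *Gpihbp1* were lower by 1.99-fold and 1.84-fold without passing the adjusted threshold in edgeR. *Lpl*, *Cd36* and *Slc27a1* differed by at most 0.06 on the log2 scale. Adjusted p-values of edgeR's quasi-likelihood test were at most 0.05 for 4 of the 10 genes, all lower, where 22.1% of all genes tested passed, 9.13% of all genes being higher and 12.9% lower. By the rule of the study's methods (a fold change from 1.5 upward, a nominal p not above 0.001 and a group mean not below 2 CPM) 0 of the 10 were called, against 4.12% of all genes. The median log2 difference of the 10 genes was -0.92, beside -0.0031 over all genes. The groups overlapped for all 10 genes, where 4.13% of all genes were lower in every HFD-fed AKO mouse than in any chow-fed AKO mouse. The adjusted calls rest on few mice: their count was 0 without chow-fed AKO mouse 1, chow-fed AKO mouse 3 or HFD-fed AKO mouse 4, and 1 without chow-fed AKO mouse 2 or HFD-fed AKO mouse 1, 2 or 5. Without HFD-fed AKO mouse 6 the study's rule called 3 of the 10 genes and 7.03% of all genes.

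**Figure D1:**
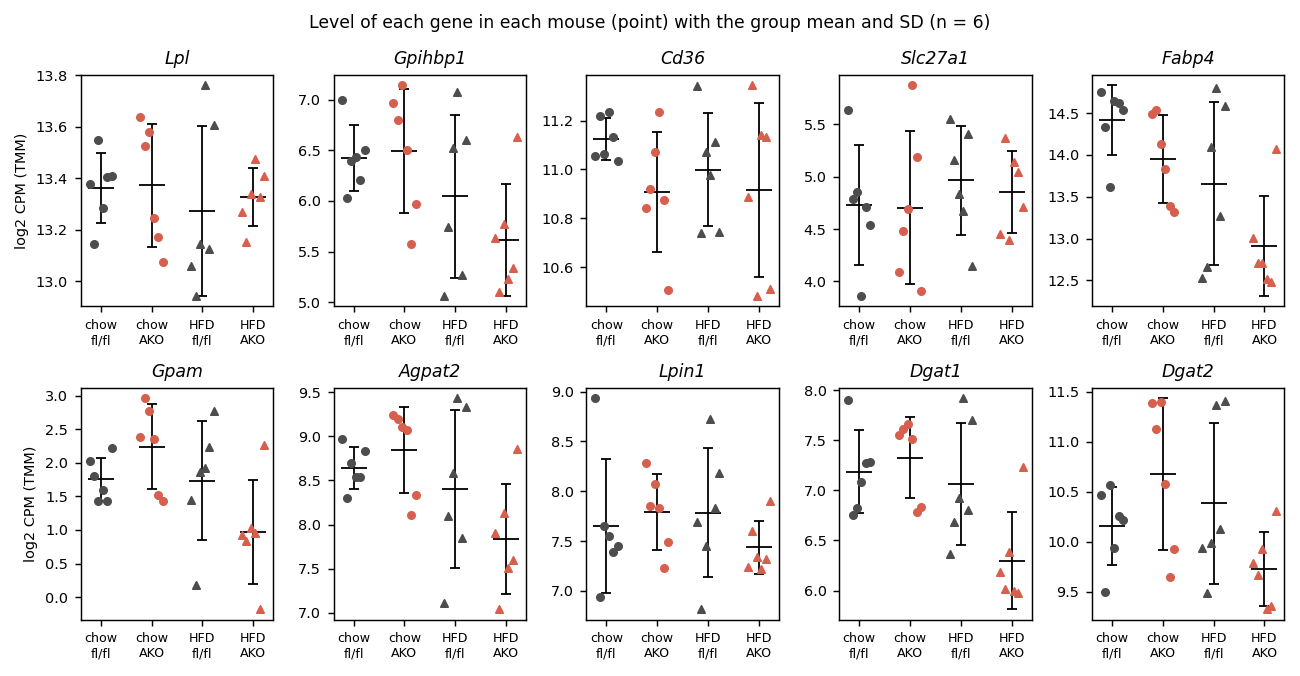
Level of each of the 10 genes (log2 CPM after TMM scaling; each panel has its own axis) in each of the 24 mice, with the mean and SD of 6 mice per group as a bar; grey points are fl/fl and red points AKO mice, circles chow and triangles HFD. Of the HFD-fed AKO mice, 5 of 6 lie below all chow-fed AKO mice for *Fabp4*, *Gpam* and *Dgat1*, and the HFD-fed fl/fl mice are spread widely.

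Among the enzymes of the last acyl chain, *Dgat1* had the lowest p of the 10 genes. *Dgat1* (chr15:76502015-76511953) ranged from 108 to 239 CPM in chow-fed fl/fl mice (median 145), from 110 to 202 in chow-fed AKO mice (median 185), from 82.1 to 242 in HFD-fed fl/fl mice (median 116) and from 62.9 to 150.5 in HFD-fed AKO mice (median 68.6). In AKO mice 5 of the 6 on HFD were below every mouse on chow, and HFD-fed AKO mouse 6 stood at 150.5 CPM, with the next highest at 83.4. The change was -0.99 on the log2 scale (SE 0.28, adjusted p = 0.0228 in edgeR), and the exact two-sided permutation test of the log2 levels gave p = 0.00649, where 0.00216 is the smallest p that 6 against 6 mice allow. *Dgat2* (chr7:99153658-99182719), which makes triglyceride mainly from newly formed fatty acids, had medians of 1210 CPM (722 to 1511) in chow-fed fl/fl, 1885 (801 to 2692) in chow-fed AKO, 1067 (716 to 2712) in HFD-fed fl/fl and 851 (642 to 1265) in HFD-fed AKO mice. It fell in AKO mice by 1.06 on the log2 scale (SE 0.34, adjusted p = 0.0330), with an exact permutation p of 0.0325. Here only 2 of the 6 HFD-fed AKO mice were below all chow-fed AKO mice, since chow-fed AKO mice 5 and 6 were as low as the HFD group.

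The first acyltransferases moved in the same direction. *Agpat2* ranged from 316 to 501 CPM in chow-fed fl/fl (median 394), from 277 to 607 in chow-fed AKO (median 544), from 139 to 690 in HFD-fed fl/fl (median 329) and from 132 to 465 in HFD-fed AKO mice (median 216). On HFD 4 of the 6 AKO mice were below all AKO mice on chow, and *Agpat2* fell by 0.95 (log2, SE 0.33, adjusted p = 0.0439; exact permutation p = 0.0152). The last kilobase of *Agpat2* overlaps *Egfl7*, an endothelial gene on the opposite strand. The strand setting of the counting is not given in the sources used here, so reads of this pair may not be separable, and *Egfl7* itself fell by 0.70 in the same comparison (adjusted p = 0.0345). *Gpam* was measured at 0.735 to 7.63 CPM, or 7 to 102 counts per library, the fewest of the 10. Its median was 3.12 CPM in chow-fed fl/fl (2.56 to 4.49), 5.03 in chow-fed AKO (2.56 to 7.63), 3.56 in HFD-fed fl/fl (0.982 to 6.68) and 1.77 in HFD-fed AKO mice (0.735 to 4.65). *Gpam* fell by 1.25 in AKO mice on HFD (log2, SE 0.39, adjusted p = 0.0305; exact permutation p = 0.0152), and again HFD-fed AKO mouse 6 was the only HFD-fed AKO mouse within the chow range. *Lpin1* (chr12:16535669-16646966), the phosphatidate phosphatase of the penultimate step, had a smaller difference of -0.37 (SE 0.30, adjusted p = 0.345). Its levels ran from 123 to 488 CPM in chow-fed fl/fl, from 149.7 to 311 in chow-fed AKO, from 113 to 422 in HFD-fed fl/fl and from 149 to 239 in HFD-fed AKO mice, so the groups lay within each other.

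**Figure D2:**
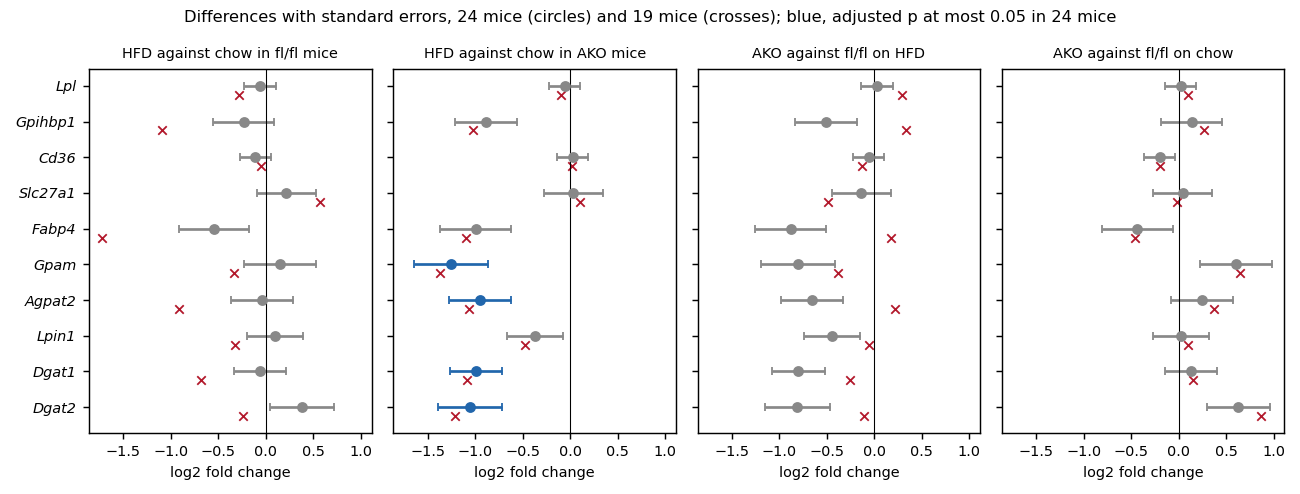
Log2 fold change with its standard error for each of the 10 genes in the 4 comparisons, from 24 mice (circles) and from 19 mice (crosses); blue circles have an adjusted p of at most 0.05. In AKO mice *Gpam*, *Agpat2*, *Dgat1* and *Dgat2* lie between -1.25 and -0.95, and without 5 mice the values in fl/fl mice and between genotypes on HFD shift.

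In edgeR none of the 5 genes of uptake passed the adjusted threshold in AKO mice, whereas in DESeq2 *Fabp4* (adjusted p = 0.0247) and *Gpihbp1* (adjusted p = 0.0295) did, and in limma-voom *Fabp4* did (adjusted p = 0.0439). *Fabp4* (chr3:10204088-10208576) ranged from 12611 to 27638 CPM in chow-fed fl/fl mice (median 24497) and from 10246 to 23680 in chow-fed AKO mice (median 16294). On HFD it ranged from 5919 to 28425 in fl/fl mice (median 13694) and from 5704 to 17244 in AKO mice (median 6690), and 5 of the 6 HFD-fed AKO mice were below all chow-fed AKO mice. The difference in AKO mice was -0.99 (log2, SE 0.37, adjusted p = 0.0567), and the exact permutation test gave p = 0.0152. *Gpihbp1* (chr15:75596628-75599481), the capillary anchor of lipoprotein lipase, had medians of 85.4 CPM (65.1 to 127), 101 (47.6 to 141), 72.5 (33.3 to 135) and 44.9 (34.2 to 98.7) in the same order of groups. Its difference in AKO mice was -0.88 (SE 0.33, adjusted p = 0.0541; exact permutation p = 0.0303).

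Lipoprotein lipase itself was level across the groups. *Lpl* (chr8:68880491-68907448) had medians of 10740, 10765, 9000 and 10316 CPM in chow-fed fl/fl, chow-fed AKO, HFD-fed fl/fl and HFD-fed AKO mice, and every library lay between 7878 and 13889. Its diet difference was -0.06 (log2, SE 0.16) in both genotypes. *Cd36*, the membrane receptor that takes up fatty acids, had medians of 2193, 1909, 2084 and 2071 CPM in that order, with a range of 1431 to 2602 over all mice, and its diet difference was 0.03 in AKO and -0.11 in fl/fl mice (SE 0.16 in each). *Slc27a1* (chr8:71568882-71587302) varied from 14.4 to 58.5 CPM without an order by group, and its diet difference in AKO mice was 0.03 (SE 0.31). These values do not show that the levels were equal, least of all for *Slc27a1*, whose error was the larger.

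In fl/fl mice no member passed either rule on HFD against chow, beside 0.173% of all genes by the study's rule and 0.00% at an adjusted p of at most 0.05 (edgeR; 1354 genes had an unadjusted p under 0.05). The differences were -0.55 for *Fabp4* (SE 0.37, adjusted p = 0.676), -0.06 for *Dgat1*, 0.38 for *Dgat2*, -0.04 for *Agpat2* and 0.15 for *Gpam*. The median of the 10 genes was -0.052, beside -0.0081 over all genes. The HFD-fed fl/fl mice differed widely in their score on the principal component, which is drawn from the same data as these levels. *Fabp4* stood at 5919, 6500 and 9898 CPM in mice 1, 2 and 5 and at 17490, 28425 and 24583 CPM in mice 3, 4 and 6, the mice with the low scores. *Dgat1* was 82.1, 103 and 111 CPM in the first set and 121, 242 and 208 CPM in the second. *Gpam*, *Lpin1*, *Dgat2* and *Cd36* did not divide in this way, and *Slc27a1* divided in the opposite direction. *Gpam* was higher in mouse 5 (4.55 CPM) than in mice 3 and 4 (3.48 and 3.63 CPM). *Lpin1* was lower in mouse 3 (175 CPM) than in mice 1 and 5 (207 and 228 CPM). *Dgat2* was higher in mouse 5 (1118 CPM) than in mouse 3 (1015 CPM). *Cd36* was highest in mouse 1 (2592 CPM) and lowest in mouse 2 (1711 CPM). *Slc27a1* stood at 46.7, 35.7 and 42.3 CPM in mice 1, 2 and 5 and at 28.5, 25.3 and 17.6 CPM in mice 3, 4 and 6. Without the 5 mice, which removes mice 3, 4 and 6 of the HFD-fed fl/fl group, *Fabp4* was -1.73 (adjusted p = 0.00277, called by the study's rule). *Gpihbp1* was then -1.09 (adjusted p = 0.0191) and *Agpat2* was -0.91 (adjusted p = 0.0445). *Dgat2* changed sign from 0.38 to -0.24, *Gpam* from 0.15 to -0.34 and *Lpin1* from 0.10 to -0.32. *Dgat1* moved from -0.06 to -0.68 (adjusted p = 0.0831) and *Slc27a1* from 0.22 to 0.57 (adjusted p = 0.274). The share of all genes that were lower then stood at 6.28% by the study's rule and 15.5% by adjusted p. In AKO mice the same set gave 4 of 10 by the study's rule, against 9.57% of all genes lower (*Dgat2* -1.21, *Dgat1* -1.09, *Agpat2* -1.07 and *Gpihbp1* -1.02), and 6 of 10 by adjusted p, against 21.4%.

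**Figure D3:**
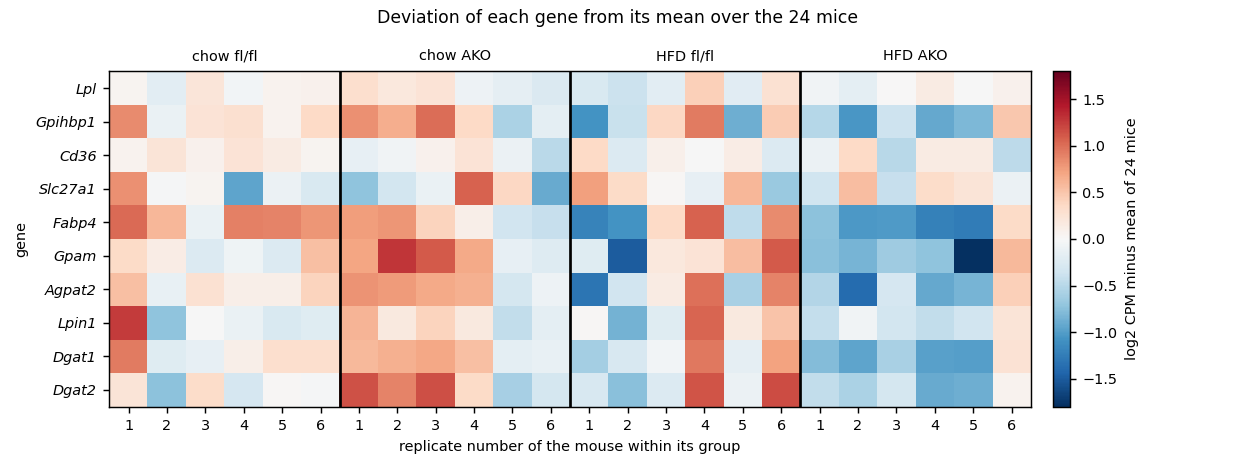
Deviation of each of the 10 genes (rows, log2 CPM) from its mean over the 24 mice (columns, by group and replicate number); red is above and blue below the mean. HFD-fed fl/fl mice 4 and 6 are red like chow-fed AKO mice 1, 2 and 3 for *Fabp4*, *Agpat2*, *Dgat1* and *Dgat2*, and HFD-fed AKO mouse 6 is the one mouse of its group that is red or near 0 for *Fabp4*, *Dgat1* and *Dgat2*.

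The comparison of genotypes on HFD shares the HFD-fed AKO mice with the comparison of diets above. None of the 10 genes passed either rule (background 0.173% by the study's rule and 0.00% by adjusted p, with 2227 genes at an unadjusted p under 0.05). In libraries labelled AKO, *Dgat1* was lower by 1.74-fold (log2 -0.80, SE 0.27, adjusted p = 0.291, exact permutation p = 0.0433), *Fabp4* by 1.84-fold, *Gpam* and *Dgat2* by 1.75-fold and *Agpat2* by 1.58-fold. The median over the 10 genes was -0.59, beside -0.026 over all genes. Without the 5 mice this median was -0.081. *Fabp4*, *Agpat2* and *Gpihbp1* then turned to 0.17, 0.22 and 0.33, so the direction was not stable for these genes. *Dgat1*, *Gpam* and *Dgat2* stayed below 0 with smaller differences of -0.25, -0.38 and -0.11 (adjusted p of 0.820, 0.842 and 0.949 in edgeR). On chow none passed either (background 0.113% by the study's rule and 0.00% by adjusted p, with 878 genes at an unadjusted p under 0.05). The largest differences there were 0.63 for *Dgat2* (SE 0.34, adjusted p = 0.906) and 0.60 for *Gpam* (SE 0.38), both above 0 in libraries labelled AKO. *Cd36* was lower by 0.20 on the log2 scale (exact permutation p = 0.0649). The interaction of diet and genotype was called for none of the 10 genes (background 0.386% by the study's rule and 0.00666% by adjusted p). Its unadjusted p was below 0.05 for *Dgat2* (-1.44, SE 0.48), *Gpam* (-1.41, SE 0.54) and *Dgat1* (-0.93, SE 0.39), with adjusted p-values of 0.244 to 0.275 in edgeR. A difference between genotypes in the response to diet was therefore not shown. Averaged over genotypes, *Fabp4* was lower by 0.77 on HFD (adjusted p = 0.0540) and *Dgat1* by 0.53 (adjusted p = 0.0657), and 0 of the 10 genes passed either rule (background 2.24% by the study's rule and 12.4% by adjusted p).

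Other genes of the pathway were taken from 6 lists and described by their counts and medians. In the comparison of diets in AKO mice, for which 22.1% of all genes had an adjusted p of at most 0.05, the partners of lipoprotein lipase had 3 of 15 tested genes higher and 3 lower (median 0.19). *Angptl8*, a secreted inhibitor of lipoprotein lipase made by fed adipocytes, fell by 1.64 (SE 0.37, adjusted p = 0.0132) and was called by the study's rule. *Vldlr*, a receptor of triglyceride-rich lipoproteins, fell by 1.40 and *Apoc1* by 0.97, while *Apoe* rose by 0.80, the receptor gene *Lrp1* by 0.89 and *Sel1l*, needed for the maturation of lipoprotein lipase, by 0.46. Of 19 other genes of fatty acid uptake and activation 3 were higher and 2 lower (median -0.029). The thioesterase genes *Acot2* (1.03, adjusted p = 0.0207, called) and *Acot1* (1.69) and the acyl-CoA synthetase gene *Acsl4* (0.49) rose, and *Cav1*, the caveolin of the adipocyte surface, and *Dbi*, an acyl-CoA binding protein, fell by 1.37 and 1.22. Of 5 genes that supply glycerol-3-phosphate, 1 passed: *Aqp7*, the adipocyte glycerol channel, fell by 1.28. Of 15 other acyltransferases and lipid phosphatases 2 rose and 4 fell: *Plpp1* rose by 0.61 (adjusted p = 0.0171, called) and *Agpat4* by 0.95, and *Mogat2* fell by 2.17, *Lpgat1* by 1.42, *Gpat3* by 1.17 and *Plpp3* by 1.16. *Gpat3* encodes a glycerol-3-phosphate acyltransferase of the endoplasmic reticulum, which carries out the same step as *Gpam*. Among 7 droplet and seipin partners *Cds2* rose by 0.74 and *Bscl2*, which encodes seipin, fell by 0.69. All 10 transcription factors with a known role in adipocyte lipid storage were below 0 (median -0.70), and *Cebpa* (-0.69, adjusted p = 0.0225) and *Mlxipl* (-1.08, adjusted p = 0.0240), the carbohydrate-responsive factor ChREBP, passed the test.

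In fl/fl mice 0 genes of the 6 lists passed either rule with all mice. Without the 5 mice the study's rule called 8 of the 71 tested list genes higher and 6 lower, against 11.8% of all genes in either direction. *Vldlr* then stood at -1.44 in place of -0.07, *Acsl1*, which activates fatty acids, at -1.26 in place of -0.53, and *Furin* at 1.16 in place of 0.66. In AKO mice that set called 8 higher and 12 lower, against 15.7% of all genes. With all mice the lowest p in each list belonged to *Furin* (0.66), *Slc27a4* (0.26), *Pck1* (-0.78), *Agpat1* (0.54), *Cds2* (0.36) and *Cebpb* (0.84), with adjusted p-values from 0.434 to 0.758. Between genotypes on HFD *Acsl4* was called by the study's rule and was higher by 0.59 in libraries labelled AKO (SE 0.15, adjusted p = 0.291). The leading genes of the other lists were *Lrp1* (0.88), *Aqp7* (-0.80), *Mogat2* (-1.83), *Pcyt1a* (0.40) and *Mlxipl* (-0.97). On chow they were *Angptl8* (0.84), *Slc27a3* (0.46), *Pck1* (-1.13), *Plpp1* (-0.46), *Bscl2* (0.37) and *Cebpb* (0.75), and none was called. In the interaction *Angptl8* (-1.99), *Mogat2* (-3.24) and *Plpp1* (0.79) met the study's rule, each with an adjusted p of 0.220. Without the 5 mice none of these 3 genes nor *Acsl4* met the rule, and it called 0 list genes between genotypes on HFD, *Cebpb* on chow (0.98), and *Furin* (-0.90), *Slc27a3* (-1.54) and *Cebpb* (-1.46) in the interaction.

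**Figure D4:**
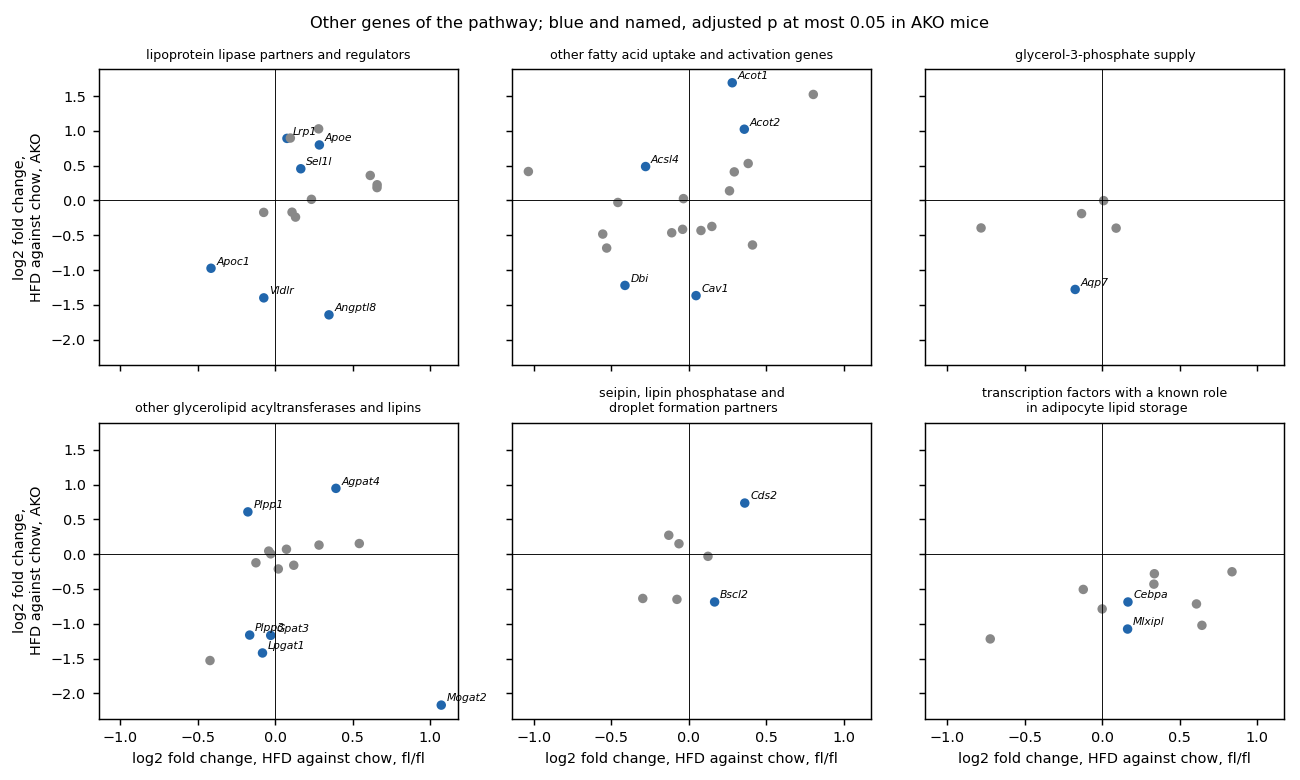
Log2 fold change of HFD against chow in fl/fl mice (x axis) and in AKO mice (y axis) for the genes of 6 pathway lists; blue points, with names, have an adjusted p of at most 0.05 in AKO mice. The transcription factors lie below 0 in AKO mice for all 10 genes, whereas the other lists hold genes on both sides.

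Levels of cell type markers also differed between diets in AKO mice, some being lower and some higher on HFD. In bulk tissue, fewer cells of a type and less RNA per cell cannot be told apart. The summed level of 10 adipocyte markers, none of which is among the 10 genes, ranged from 5543 to 29183 CPM in chow-fed fl/fl, from 5272 to 21132 in chow-fed AKO, from 3631 to 21836 in HFD-fed fl/fl and from 3585 to 8650 in HFD-fed AKO mice. In AKO mice on HFD all 10 were below 0 (median -1.22), with *Adipoq* at -1.44 and *Plin1* at -0.98 (adjusted p = 0.0526). An adjusted p of at most 0.05 in edgeR was reached by 6 of them. At that threshold 12.9% of all genes were lower and 9.13% higher. The 10 macrophage markers summed to between 2284 and 11647 CPM in chow-fed AKO mice and between 8558 and 18118 CPM in HFD-fed AKO mice. Of these 10, 9 were above 0 (median 1.22). At the adjusted threshold *Cd68* and *Itgax* rose and *Cd163* fell, and *Adgre1* was at 0.94 (adjusted p = 0.156). All 8 endothelial markers were below 0 (median -0.68), and 3 passed the adjusted threshold, *Pecam1* (-0.67) among them. Of 7 mesothelial markers 6 were below 0 (median -1.35), and 2 passed the adjusted threshold. *Msln* was at -2.36 (adjusted p = 0.0188), from a median of 4.23 CPM in chow-fed AKO to 2.07 CPM in HFD-fed AKO mice. Chow-fed AKO mice 1 and 2 stood at 22.5 and 19.1 CPM, and the others of that group at 2.90 to 4.86 CPM. The HFD-fed AKO mice had 0.268 to 2.99 CPM, from only 3 to 38 counts. The summed level of the mesothelial markers ranged from 25.9 to 148 CPM on chow and from 9.73 to 53.0 CPM on HFD in these mice. Of 7 progenitor and fibroblast markers 6 were above 0 (median 0.52), and only *Pdgfra* passed, with a rise of 0.69 (adjusted p = 0.0210). The sum of the 7 ranged from 3637 to 6374 CPM on chow and from 5551 to 6707 CPM on HFD. No adipocyte, macrophage or endothelial marker was at 0 in any library. The part of cell content in the differences of the 10 genes was not tested by separating cells. With the mean of the adipocyte markers as a covariate the differences in AKO mice were -0.27 for *Dgat1*, -0.04 for *Dgat2*, -0.12 for *Agpat2*, -0.56 for *Gpam*, -0.13 for *Fabp4* and 0.02 for *Gpihbp1*. *Lpin1* turned from -0.37 to 0.37 and *Lpl* from -0.06 to 0.25, *Cd36* was at -0.11 and *Slc27a1* at -0.14. In that fit 0 of all 15020 genes had an adjusted p of at most 0.05 in this comparison.

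**Figure D5:**
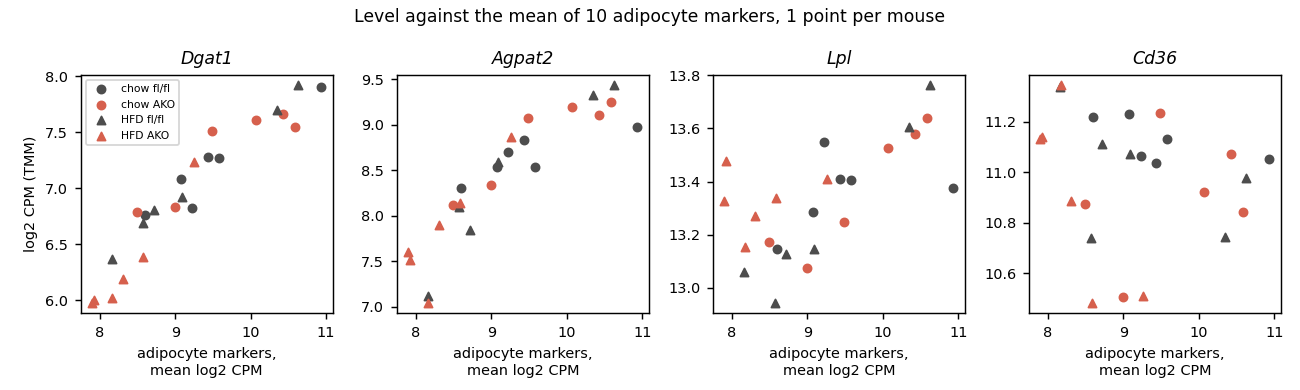
Level of *Dgat1*, *Agpat2*, *Lpl* and *Cd36* (log2 CPM) against the mean log2 CPM of 10 adipocyte markers in each of the 24 mice; grey is fl/fl and red AKO, circles chow and triangles HFD. *Dgat1* and *Agpat2* are higher in mice with higher markers, *Lpl* spans a narrow range, and *Cd36* shows no such order.

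Across the 24 libraries, after each group's mean was taken away, *Dgat1* followed the adipocyte marker mean with a Pearson r of 0.94 (Spearman's rho 0.94, and r of 0.92 without the 2 libraries farthest from the median). The value was 0.89 for *Dgat2* and *Gpihbp1*, 0.85 for *Agpat2* and *Lpin1*, 0.81 for *Fabp4*, 0.78 for *Lpl*, 0.62 for *Gpam*, -0.23 for *Slc27a1* and -0.30 for *Cd36*. These libraries share their tissue and scaling, so the values are a description. With 8 endothelial markers r was 0.94 for *Gpihbp1*, which is made by endothelial cells, but a high value was not particular to this gene. The endothelial r was 0.93 for *Dgat1*, 0.90 for *Agpat2*, 0.86 for *Fabp4*, 0.82 for *Dgat2* and 0.73 for *Lpin1*. It was 0.67 for *Lpl* and *Gpam*, -0.32 for *Slc27a1* and -0.35 for *Cd36*. Of the 45 pairs of the 10 genes, 29 had r above 0.5 and 15 had r below 0, and the median was 0.61. *Cd36* and *Slc27a1* (r of 0.56 with each other) stood apart from the other 8 genes, whose levels followed each other from mouse to mouse within a group.

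The genes most like each of the 10 over the 24 libraries, by the same within-group r, were as follows. *Dgat1* was nearest to *Rtn2* (0.97), *Dgat2* to *Ddr1* and *Orm1* (0.97 each), *Agpat2* to *Esam* (0.97) and *Sod3* (0.96), and *Gpihbp1* to *Esam* (0.96) and *Slc6a13* (0.94). *Esam* encodes an adhesion molecule of endothelial cells. *Fabp4* was nearest to *Mpdz* (0.96) and *Mpp7* (0.95), *Lpin1* to *Dlc1* and *Mtus1* (0.95 each), *Lpl* to *Isca2* (0.92) and *Rpe* (0.91) and *Gpam* to *Pcolce2* (0.82) and *Echdc1* (0.81). The nearest genes of *Cd36* were *Tspan31* (0.85) and *Tesk2* (0.84), and those of *Slc27a1* were *Lmf2* (0.79) and *Tcn2* (0.75).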

How the data were processed

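Raw counts per gene and library were deposited by the authors, who aligned and counted QuantSeq reads with a pipeline of the kit's maker. The submitters' processing notes name GRCm38 (mm10), R 4.0.3 and DESeq2 1.30. A second deposited table holds the same libraries as a normalized signal, divided by size factors by the authors, and gave gene symbols and positions only. All 24 columns were mapped to mice by their names.

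The tests used edgeR 4.0.16 under R 4.3.3. A gene was kept if 3 or more libraries reached 1 CPM, and counts were scaled with TMM factors and fitted by quasi-likelihood with 1 coefficient per group. Levels are CPM, and log2 CPM used a prior count of 2. Adjusted p-values are Benjamini-Hochberg values over 15020 genes. The study's call rule was applied to all 24 mice. Single genes were also compared by exact two-sided permutation tests (scipy 1.17.1). Alternatives used limma 3.58.1 and DESeq2 1.42.0. Counts of 14977 genes were also simulated for HFD against chow in AKO mice. The genes to be changed were drawn only from those above a floor of mean CPM that *Gpam* did not reach. On the simulated counts edgeR recovered 67 of 100 genes changed 2-fold and 91 of 100 changed 3-fold. It made 12 false calls in a simulated comparison without changes. These values do not give the power for the members in the real libraries, whose groups were heterogeneous, and that power was not tested.

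No 2 libraries of a group agreed within sampling noise (lowest chi-square per degree of freedom 5.72 over 60 pairs). Each library is labelled as a separate mouse. Named genes were the 10 members, up to 5 called genes with the lowest p per list and comparison (otherwise the one with the lowest p), 5 marker genes, *Lama4* and the 2 genes most like each member (1 of these is not reported here). Genes that passed only the adjusted threshold, *Cd68*, *Itgax*, *Cd163*, *Egfl7*, *Pdgfra*, *Acsl1* and genes called only without the 5 mice were named after their values were seen. The members and lists were chosen with earlier results of these data known.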

Additional observations from a re-analysis of the deposited data

Results flagged for a closer look

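Of 40 groups of 6 mice (10 genes in 4 groups), 4 held a mouse far from the others of its group by Dixon's test, which by chance marks about 1 group in 20. *Fabp4* was lowest in chow-fed fl/fl mouse 3 at 12611 CPM, with the next mouse at 20707. HFD-fed AKO mouse 6 was highest for *Fabp4* at 17244 CPM (next 8203) and for *Dgat1* at 150.5 CPM (next 83.4), and chow-fed fl/fl mouse 1 was highest for *Lpin1* at 488 CPM (next 201). The mean log2 CPM of the adipocyte markers was 9.25 in HFD-fed AKO mouse 6, above the other HFD-fed AKO mice (7.90 to 8.58), and 10.9 in chow-fed fl/fl mouse 1, the highest of all 24, and the part of cell content in these values was not tested.

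The response to diet differed between genotypes at an unadjusted p under 0.05 for *Dgat2* (-1.44 on the log2 scale, lower in AKO), *Gpam* (-1.41) and *Dgat1* (-0.93). None passed adjustment over all genes in edgeR (adjusted p of 0.244, 0.263 and 0.275). Without the 5 mice the differences were -0.97, -1.03 and -0.41.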

How the results depend on the processing

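By the study's rule 0 of the 10 genes were called in every comparison with edgeR on 24 mice, and at an adjusted p of at most 0.05 the count was 4 for HFD against chow in AKO mice and 0 elsewhere. For that comparison the study's rule gave 1 with limma-voom (4.02% of all genes), 1 with DESeq2 (8.75%), 1 with only the groups compared (9.55%), 6 with sample quality weights (23.9%), 4 with 19 mice (15.7%), 5 with limma-voom on 19 mice (15.9%) and 4 when the adjusted p replaced it, and 0 to 3 when 1 mouse was left out (3 without HFD-fed AKO mouse 6, and 1 without chow-fed fl/fl mouse 1, chow-fed AKO mouse 5 or 6 or HFD-fed fl/fl mouse 4). The adjusted count there was 5 with limma-voom (22.4% of all genes), 6 with DESeq2 (28.8%), 6 with only the groups compared (35.0%), 6 with 19 mice (40.3%), 7 with quality weights (53.8%), 0 with the adipocyte covariate and 0 to 6 when 1 mouse was left out (0 or 1 without the 7 mice named above for it). In fl/fl mice 19 mice gave 1 by the study's rule and 3 by adjusted p with edgeR (11.8% and 29.0% of all genes) and with limma-voom. Between genotypes on HFD quality weights gave 2 and 5 (3.50% and 17.1% of all genes), and leaving out 1 mouse gave 0 to 1 by the study's rule, the 1 without HFD-fed AKO mouse 6. Averaged over genotypes quality weights gave 2 and 5 (6.10% and 31.9% of all genes), 19 mice gave 4 and 6 with both tools (21.4% and 51.9% of all genes in edgeR), limma-voom and DESeq2 gave 2 by adjusted p (13.0% and 21.9%), and leaving out 1 mouse gave 0 to 1 and 0 to 5 (5 without HFD-fed AKO mouse 6, 4 without HFD-fed fl/fl mouse 4, 3 without chow-fed AKO mouse 5, 2 without chow-fed fl/fl mouse 3 or HFD-fed fl/fl mouse 6 and 1 without chow-fed AKO mouse 6). For the interaction quality weights gave 3 and 6 (9.04% and 29.5% of all genes). Limma-voom on 19 mice and the adjusted counts of each alternative were added after the data were seen. The cause of these shifts was not tested.

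With replicate number as a block (replicate block) the counts in AKO mice were as without it, 0 by the study's rule and 4 by adjusted p. The adjusted p-values in that edgeR fit were 0.0317 for *Dgat1*, 0.0349 for *Gpam*, 0.0405 for *Agpat2* and 0.0465 for *Dgat2*. Of all 15020 genes 2398 passed with the block and 3315 without it. The deviations of same-numbered mice had r of -0.53 to 0.71 over 36 pairs (median 0.0011, 15 over 0.1). Whether the numbers mark anything shared between mice was not tested. No called value changed sign. *Gpam* had 7 to 102 counts per library, and its SD within groups (0.69 on the log2 scale) was close to that of *Fabp4* (0.66), which had 54352 or more.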
